A study of Mus musculus with 7 samples.

Results

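TRF2 is a shelterin protein, known for binding the duplex TTAGGG repeats of telomeres and for keeping chromosome ends from being read as breaks. In the muscle stem cells (MuSCs) studied here most of its CUT&Tag peaks away from telomeres lay in chromatin that was also open by ATAC-seq, and 503 of 7052 reproducible TRF2 regions (7.13%) did not. These 503 regions are described here. They were selected on the measured peak lists. MACS peaks of both TRF2 CUT&Tag libraries on chromosomes 1 to 19 were merged, a merged region had to hold a peak of each replicate and no IgG peak, and it had to share not 1 bp with a MACS peak of any of 4 ATAC-seq libraries. The remaining 6549 regions (92.9%) overlapped an ATAC peak.

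CUT&Tag directs a transposase to the DNA around a protein by way of an antibody, so that the tagged fragments can be sequenced. It was carried out on sorted MuSCs labelled wild type, from tibialis anterior muscle 3 days after notexin, a snake venom that kills muscle fibers. There were 2 libraries with a TRF2 antibody and 1 with IgG, an antibody without a target. The study's methods give another time after injury for this experiment, add the gastrocnemius muscle, and name Pax7gCre/gCre;TdTomato fl/fl animals. ATAC-seq, in which the transposase cuts wherever chromatin is accessible, was carried out on MuSCs of uninjured hind limb muscle at 0 hr, with 2 Control and 2 TRF2KO libraries. TRF2KO mice carried LoxP-flanked TRF2 alleles and a tamoxifen-induced Pax7-CreER, which deletes in Pax7-expressing cells, on a C57BL/6 background. Their genotype field also reads wild type, and the groups were taken from the titles. Sorting kept cells positive for α7-integrin and for VCAM or CD34, and removed those with blood, endothelial or Sca1 surface markers. The TRF2 map thus came from injured muscle and the ATAC maps from uninjured muscle, so that a site opened by injury and a site bound in closed chromatin cannot be told apart. The labels give no age, and do not say whether replicates came from separate animals.

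Outside telomeres, TRF2 has been described at interstitial TTAGGG repeats and at G-quadruplexes, structures that 4 runs of guanine can fold into. CpG islands are the unmethylated, CpG-rich starts of many mouse genes and are usually open. AP-1 is the dimer of Fos and Jun family proteins that binds TGACTCA, and its genes are induced within minutes when MuSCs leave quiescence. Tandem repeats are short units copied head to tail, and their copy number often differs between mouse strains and from the reference assembly.

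The sequences of 7 regions show what recurred among the 503. Each is given as 201 bases centered on the summit of the replicate 1 peak, plus strand of GRCm38 (the coordinates of mm10) from RefSeq, in lower case with the feature in capitals.
The region 13053 bp from the start of Il17a is shown as a tandem array without G-quadruplex (G4) motifs, with each copy of the run cggtgcagagca in capitals (chr1:20744044-20744244).
Il17a: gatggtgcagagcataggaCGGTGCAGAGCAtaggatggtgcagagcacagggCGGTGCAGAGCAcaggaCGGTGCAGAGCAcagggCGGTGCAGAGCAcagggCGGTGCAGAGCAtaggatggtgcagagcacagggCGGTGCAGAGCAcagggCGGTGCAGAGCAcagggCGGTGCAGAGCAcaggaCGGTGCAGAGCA
The region in an intron of Ntrk2 is shown because its G4 motifs, in capitals, lie on the minus strand and so read as runs of C (chr13:58912617-58912817).
Ntrk2: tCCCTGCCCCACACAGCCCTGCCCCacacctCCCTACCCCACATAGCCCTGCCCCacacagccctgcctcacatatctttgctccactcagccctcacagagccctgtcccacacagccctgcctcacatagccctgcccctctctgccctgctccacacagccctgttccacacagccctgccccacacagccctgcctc
The region 101138 bp from Rasa1 is shown because it holds the most telomere-like units, with TTAGGG or its reverse complement in capitals (chr13:85390361-85390561). The stretch has 8 whole units and begins inside another. It was chosen after its values were seen.
Rasa1: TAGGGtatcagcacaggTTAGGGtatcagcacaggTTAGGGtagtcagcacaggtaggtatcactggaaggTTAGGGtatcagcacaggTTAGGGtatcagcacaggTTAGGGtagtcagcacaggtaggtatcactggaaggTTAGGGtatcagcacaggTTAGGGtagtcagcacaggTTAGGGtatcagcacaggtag
The region 377 bp from the start of Zfand4 is the highest-ranking one near a start and carries an AP-1 motif, in capitals as in the following pair (chr6:116287043-116287243).
Zfand4: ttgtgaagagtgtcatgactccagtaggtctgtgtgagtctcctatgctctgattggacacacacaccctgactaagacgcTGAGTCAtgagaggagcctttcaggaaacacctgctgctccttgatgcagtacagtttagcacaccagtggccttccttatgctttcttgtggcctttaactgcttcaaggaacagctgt
The intergenic region on chromosome 2, with Syt13 as nearest coding gene at 138321 bp, carries 2 AP-1 motifs (chr2:92776554-92776754).
Syt13: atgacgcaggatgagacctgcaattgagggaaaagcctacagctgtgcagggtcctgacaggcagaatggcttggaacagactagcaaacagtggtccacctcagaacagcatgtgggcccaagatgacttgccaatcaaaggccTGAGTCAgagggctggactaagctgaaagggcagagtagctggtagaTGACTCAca
The region 174159 bp from Eya1 carries 4 AP-1 motifs in its window, 3 of them in this stretch, and was also chosen after its values were seen (chr1:14484592-14484792). Parts of the stretch are repeated, though its window fell just under the limit for a tandem repeat set below.
Eya1: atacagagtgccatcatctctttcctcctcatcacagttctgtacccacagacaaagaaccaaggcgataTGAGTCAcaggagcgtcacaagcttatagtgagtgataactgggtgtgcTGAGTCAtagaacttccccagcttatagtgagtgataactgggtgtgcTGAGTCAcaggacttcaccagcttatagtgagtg
The region in an intron of Ccdc122, among the 10 highest, is shown as one with neither a tandem repeat nor an AP-1 or G4 motif (chr14:77100413-77100613).
Ccdc122: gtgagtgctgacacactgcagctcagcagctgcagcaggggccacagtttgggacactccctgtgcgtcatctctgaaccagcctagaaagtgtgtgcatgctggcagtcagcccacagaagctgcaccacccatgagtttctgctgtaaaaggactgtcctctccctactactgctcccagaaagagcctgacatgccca

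The regions were modest peaks. Fold enrichment, the summit pileup over local background as deposited by MACS, ran from 3.47 to 11.2 with a median of 5.56 in replicate 1 and from 3.41 to 19.9 with a median of 5.99 in replicate 2. In the 6549 regions in ATAC peaks the medians were 6.25 and 6.61 and the highest values 33.9 and 40.2. The pileup at the summit, worked back from the fold and the p of each peak, had a median of 8 fragments in replicate 1 and 9 in replicate 2 in the 503 regions, so each region rests on few fragments. Their median width was 389 bp. The summits of both replicates lay a median of 69.0 bp apart, and within 100 bp of each other in 311 regions. Since a peak in each replicate was part of the selection, these values are a description. Of all IgG-free TRF2 regions found in either replicate, 503 of 4489 outside ATAC peaks (11.2%, 95% interval 10.3 to 12.2) and 6549 of 15078 in ATAC peaks (43.4%, 42.6 to 44.2) had a peak in both. The 503 regions spread over all 19 autosomes at 15.1 to 29.8 regions per 100 Mb, lowest on chromosome 7 and highest on chromosome 18, and 4 of them lay within 10 kb of another.

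**Figure D1:**
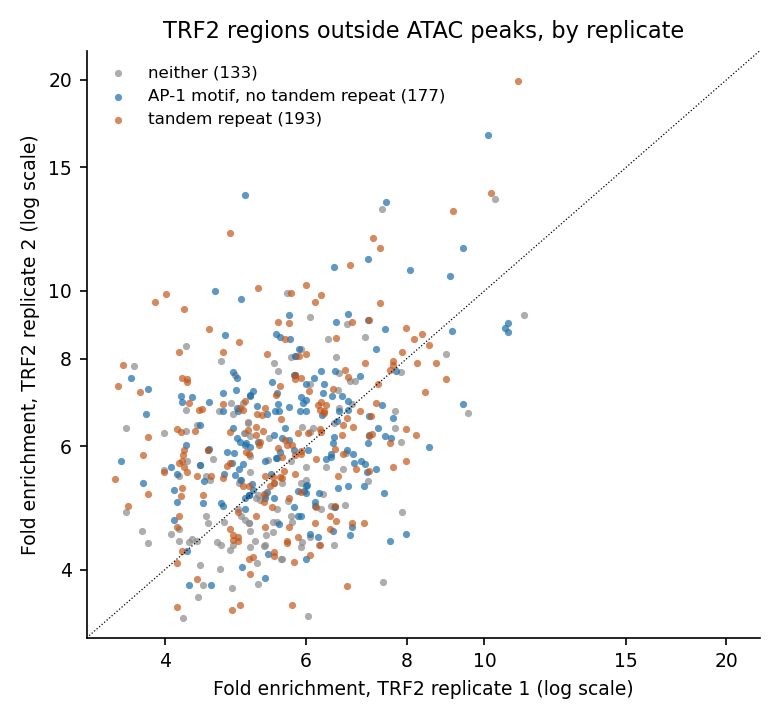
Fold enrichment of the 503 TRF2 regions outside ATAC peaks in replicate 1 (x axis) and replicate 2 (y axis), both on a log scale, with 1 point per region colored by the sequence class of its window and a dotted line at equal folds. The Pacs1 region stands at the upper right, at 11 and 19.9, and the 3 classes overlap over most of the range.

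The 10 regions with the highest lower fold of both replicates were at scattered places. The Pacs1 region, in an intron of a gene for a sorting protein of the trans-Golgi network, had folds of 11 and 19.9 from 21 and 39 fragments. An intergenic region 77385 bp from Atg7, a gene for an enzyme of autophagosome formation, had folds of 10.3 and 13.5. The region near Il17a, the gene of a cytokine of T cells, had 10.2 and 13.8. A region 26516 bp from Cry1, a repressor of the circadian clock, had 10.1 and 16.7. Replicate 2 was the higher of the pair in all 4. The Zfand4 region had folds of 9.40 and 11.5 and the Ccdc122 region 11.2 and 9.24. On chromosome 18, a region 2366 bp from Gramd3 had 9.13 and 13.0 and a region in an intron of the transcript AC131675.3 had 9.07 and 10.5. The region in an intron of Abhd2, which encodes a lipid hydrolase, had 10.7 and 8.99, and the chromosome 2 region with Syt13 as nearest coding gene had 10.6 and 8.86. Of these 10, the windows at Pacs1, Il17a and Gramd3 were tandem repeats, those at Cry1, Zfand4, AC131675.3, Abhd2 and Syt13 held 1 or 2 AP-1 motifs without one, and those near Atg7 and in Ccdc122 had neither. Atg7 and Matn1, a cartilage matrix gene, were each the nearest coding gene of 3 regions, and the 503 regions had 481 different nearest coding genes in all.

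The regions lay mostly away from gene starts, as did the genome outside ATAC peaks. Within 3 kb of any annotated start there were 96 (19.1%, 95% interval 15.7 to 22.8), against 5032 of 6549 regions in ATAC peaks (76.8%), with an odds ratio of 0.0711 (Fisher's exact test, two-sided, adjusted p = 2.84e-150). Of 7524423 tiles that cover the autosomes outside ATAC peaks, as long as the windows described next, 15.2% lay as near to a start. A further 189 regions (37.6%) were in introns, 215 (42.7%) were intergenic, 2 were in UTRs and 1 in an exon. Of 385 IgG peaks outside ATAC peaks, 46 (11.9%) were near a start (Fisher's exact test, odds ratio 1.74, adjusted p = 0.00692), a call that was lost without tandem-repeat windows (odds ratio 1.34, adjusted p = 0.542). All Fisher's tests here count regions of the same few libraries and not samples, their p-values were adjusted over 10 tests, and 80 of the 503 regions shared a run of 31 bases with another, so they treat as independent what is partly repeated.

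Only 59 regions lay within 3 kb of a protein-coding start, and 4 overlapped one, at Ankrd55, Abcb1a, Prss46 and Sema3e. The 5 with the highest lower fold were the Zfand4 and Gramd3 regions and those at Pde3b, Fnta and Traf5. The Pde3b region, 1121 bp from the start of a cyclic nucleotide phosphodiesterase gene, had folds of 10.7 and 8.74 and 2 AP-1 motifs. The region 839 bp from Fnta, which encodes a subunit of the enzyme that farnesylates proteins, had 7.62 and 7.72 in a repeat with a period of 63 bp. The region 1350 bp from Traf5, an adaptor of tumor necrosis factor receptors, had 8.44 and 7.17 in a repeat with a period of 47 bp. The nearest ATAC peak was 22286 bp from the Zfand4 region, 16692 bp from the Gramd3 region and 41672 bp from the Pde3b region, so these annotated starts lacked an ATAC peak in all 4 libraries.

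CpG island-like sequence was rare in the 503 regions and rarer still in tiles outside ATAC peaks. In the window of 150 bp to either side of the replicate 1 summit, a GC content of at least 55% with a CpG observed-to-expected ratio of at least 0.6 was met by 4 of 503 regions (0.795%, 0.217 to 2.02) and by 3928 of 6549 regions in ATAC peaks (60%), with an odds ratio of 0.00535 (exact test, adjusted p = 2.25e-178). Most regions in ATAC peaks were promoters. Away from starts the share was 0.491% of 407 regions (0.0596 to 1.76) and 5.21% of 1517 regions in ATAC peaks (4.14 to 6.45). The 4 regions among the 503 were near Iqca, Skor2, Npbwr1 and Sema3e. Their share was also below that of IgG peaks outside ATAC peaks, 13 of 385 (3.38%, odds ratio 0.229, exact test, adjusted p = 0.00901), though not past the threshold without tandem-repeat windows (0.2, adjusted p = 0.0885). Of tiles outside ATAC peaks, 0.158% met both limits, a lower share than among the 503. The median GC content was 51.2% in the 503 windows, 63.1% in those in ATAC peaks and 49.5% in the IgG windows. The mean over tiles outside ATAC peaks was 41.4%.

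G4 motifs, defined as 4 G runs, each 3 or more long and parted by 1 to 7 bases, on the plus or minus strand, were in 35 of the 503 windows (6.96%, 4.89 to 9.54). In ATAC peaks 1688 of 6549 windows held one (25.8%, odds ratio 0.215, exact test, adjusted p = 8.27e-26), and 4.84% of tiles outside ATAC peaks did. Away from starts, 28 of 407 windows held one (6.88%, 4.62 to 9.79), against 198 of 1517 in ATAC peaks (13.1%, 11.4 to 14.9). Within 20 strata of GC content the odds ratio moved to 0.864 (Cochran-Mantel-Haenszel chi-square test over regions, adjusted p = 0.564), so at equal GC a difference was not detected. IgG peaks outside ATAC peaks held one in 24 of 385 windows (6.23%, odds ratio 1.12, exact test, adjusted p = 0.762), from which the 503 regions did not differ beyond counting error. The 5 G4-bearing regions with the highest lower fold were all tandem repeats. The first of them was the Pacs1 region. A region in an intron of Dlgap2, a gene for a postsynaptic scaffold protein, had folds of 8.18 and 8.55. The Ntrk2 region, in the gene for a neurotrophin receptor, had 7.38 and 7.36 with 2 motifs, and a region 187319 bp from Matn1 had 7.27 and 11.9. On chromosome 18 a region near Cndp1 had 7.89 and 8.18. Over all 35, 15 were tandem repeats.

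No window held 3 or more adjacent TTAGGG units, which allows a share of up to 0.596%, against 10 of 6549 windows in ATAC peaks (0.153%) and 1 of 385 IgG windows (0.260%), and neither difference passed the test (exact tests, adjusted p = 1.00 and 0.542). A single unit was in 37 windows (7.36%). The window of the Rasa1 region, longer than the stretch printed above, had 13 units that were not adjacent but spaced within a repeat of a longer period, with folds of 5.09 and 5.27, and the next highest window had 3. Of all 503 regions, 6 lay within 1 Mb of the distal end of their chromosome.

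What the windows did share was of 2 kinds. A window was called a tandem repeat where at least 20% of its 12-base runs had already occurred in it, and AP-1 motifs were TGACTCA on either strand. These were chosen after the sequences were seen, and are given with exact 95% intervals and without a test. Tandem repeats made up 193 of 503 windows (38.4%, 34.1 to 42.8), against 1.54% of windows in ATAC peaks and 1.75% of tiles outside ATAC peaks. Away from starts they made up 37.6% of 407 windows (32.9 to 42.5) and 4.75% of 1517 windows in ATAC peaks (3.73 to 5.94). A further 177 of the 503 windows (35.2%, 31 to 39.5) held an AP-1 motif and no tandem repeat, against 14.3% of windows in ATAC peaks. The remaining 133 (26.4%, 22.6 to 30.5) had neither, against 84.1% in ATAC peaks. Median folds in replicates 1 and 2 were 5.6 and 6.22 for tandem repeats, 5.73 and 6.13 for AP-1 windows and 5.33 and 5.37 for the remainder.

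**Figure D2:**
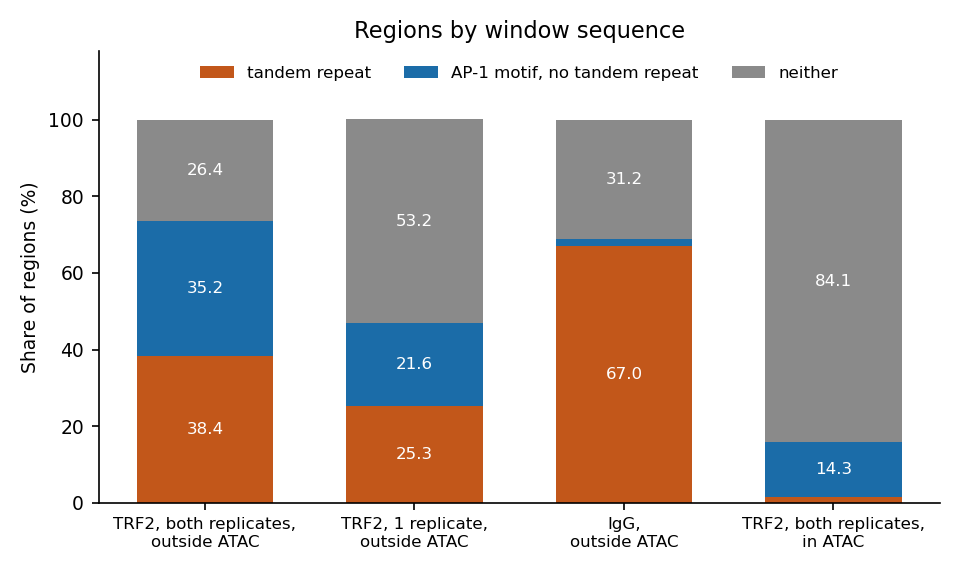
Share of regions (y axis, %) whose window was a tandem repeat, held an AP-1 motif without one, or had neither, for the 503 TRF2 regions, the 3986 regions of 1 replicate outside ATAC peaks, the 385 IgG peaks outside ATAC peaks and the 6549 TRF2 regions in ATAC peaks. Tandem repeats were 38.4% of the 503 regions and 67.0% of IgG peaks, and AP-1 windows were 35.2% and 1.82%.

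Tandem repeats were common in the IgG peaks as well. Of the 385 IgG peaks outside ATAC peaks, 258 (67.0%, 62.1 to 71.7) had a tandem-repeat window. The IgG filter removed 78 TRF2 regions that had a peak in both replicates and no ATAC peak, and 74 of these 78 (94.9%, 87.4 to 98.6) were tandem repeats, while 2 held an AP-1 motif. Among TRF2 regions of 1 replicate outside ATAC peaks, 25.3% were tandem repeats. The repeats in the 503 regions had a best-matching period of 2 to 6 bp in 54 windows, 7 to 19 bp in 48, 20 to 60 bp in 75 and 61 to 100 bp in 16, with a median of 19 bp. A CA repeat of 10 or more units was in 31 of the 193. The array near Il17a had a period of 17 bp with 93.3% of bases matching 1 period on, and 14 copies of the run shown above in its window. The window near Fnta matched at 96.6% and that with Calcr as nearest coding gene, the calcitonin receptor gene known as a marker of quiescent MuSCs, at 98.1% with a period of 44 bp, but the latter was 89148 bp from the gene's start. Of the 193, 111 were not among the repeat-masked windows, in which at least 50% of bases are soft-masked in the reference. Of the 80 regions that shared a 31-base run, 62 were tandem repeats. Reads that align to more than 1 place were removed by the authors, and the part of array copy number in these peaks was not tested.

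Repeat-masked windows were 106 of 503 (21.1%, 17.6 to 24.9), of which 82 were tandem repeats. The share was 1.33% in ATAC peaks (87 of 6549, odds ratio 19.8, exact test, adjusted p = 2.33e-72), 60.5% in IgG peaks outside ATAC peaks (233 of 385, odds ratio 0.174, exact test, adjusted p = 4.33e-33) and 27.1% over tiles. Away from starts it was 22.1% of 407 regions (18.2 to 26.5) and 4.28% of 1517 regions in ATAC peaks (3.32 to 5.43). The rule removed regions with an IgG peak, and 74 of the 78 removed were tandem repeats. The IgG comparison is thus partly set by the selection. As a description, the 503 regions lay between the regions in ATAC peaks and the IgG peaks, and below the tiles. The plot of feature shares sets all features side by side.

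**Figure D3:**
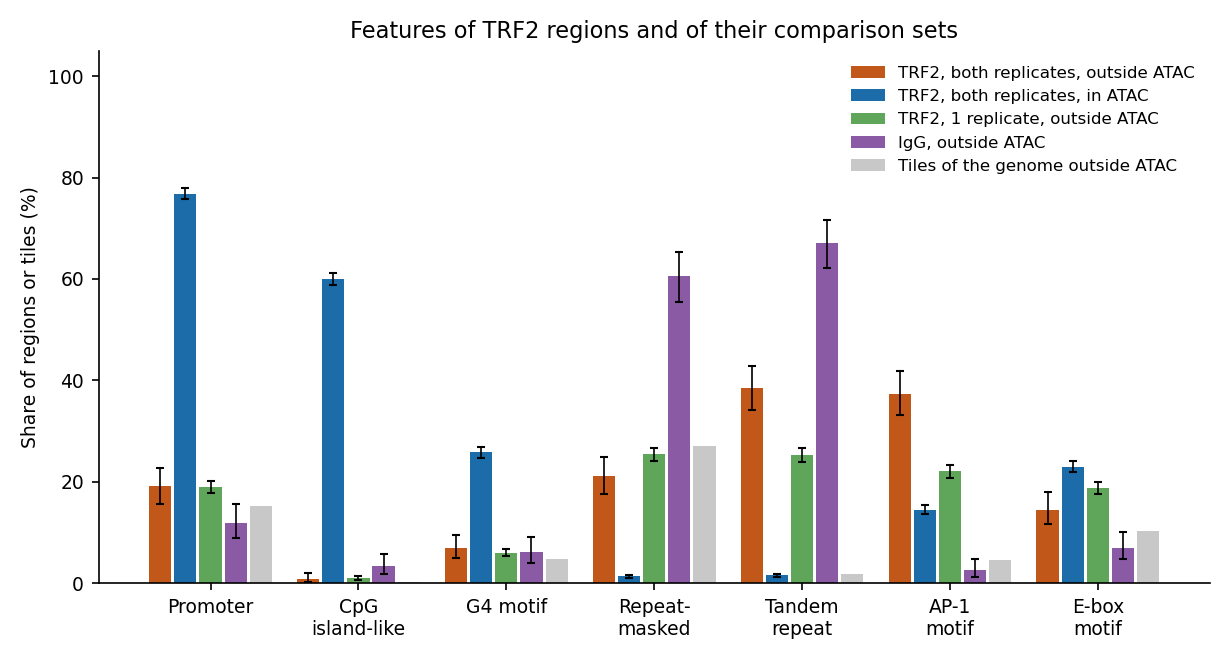
Share (y axis, %) of regions within 3 kb of a start site, or whose window was CpG island-like, held a G4 motif, was repeat-masked, was a tandem repeat, or held an AP-1 or E-box motif, with exact 95% intervals as error bars, for the 503 TRF2 regions, the regions in ATAC peaks, those of 1 replicate, the IgG peaks and the tiles of the genome. Only the AP-1 share is higher in the 503 regions (37.4%) than in all 4 other sets drawn. In the non-promoter regions in ATAC peaks, not drawn on their own, it was 39.0%.

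AP-1 motifs occurred in 188 of the 503 windows (37.4%, 33.1 to 41.8). The share was 14.5% in ATAC peaks, 22.1% in regions of 1 replicate outside ATAC peaks (20.8 to 23.4), 2.60% in IgG peaks (1.25 to 4.72) and 4.61% over tiles outside ATAC peaks. Since most regions in ATAC peaks were promoters, a closer comparison is with the 1517 that were not, where the share was 39.0%. Tandem repeats rarely held the motif (11 of 193, 5.70%). With them set aside, the share was 57.1% of 310 regions (51.4 to 62.7), 40.6% of 1445 non-promoter regions in ATAC peaks (38.0 to 43.1), 28.9% of regions of 1 replicate (27.2 to 30.5) and 5.51% of IgG peaks (2.24 to 11). In 50564 distal ATAC peaks of Control replicate 1 without a TRF2 peak it was 12.6%. Each of 8192 pairs of complementary 7-base words was counted the same way. TGACTCA had the largest excess in share in the 503 regions over each of 3 sets, the regions in ATAC peaks, those of 1 replicate and the IgG peaks. The non-promoter regions in ATAC peaks, where its share was 39.0%, were not compared on their own. Words rarer in the 503 regions are not ranked here. The GC box GGGCGG, for one, was in 3.38% of the 503 windows and in 58.3% of windows in ATAC peaks.

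The motif occurred in every kind of place. It was in 39.6% of the regions near a start, 39.2% of intronic and 34.4% of intergenic regions, and in 40%, 37.4% and 36.6% of regions up to 1 kb, 1 to 10 kb and over 10 kb from an ATAC peak, with intervals that overlap throughout. Without tandem repeats the share was 64.3% near a start (50.4 to 76.6), 60.5% in introns (50.9 to 69.6) and 51.1% in intergenic regions (42.4 to 59.7). A difference by place was not tested. The share varied with fold. In 4 groups of equal size by lower fold, from the highest to the lowest, the share was 38.9%, 49.2%, 40.5% and 20.8%, and without tandem repeats 65.4%, 69.2%, 54.5% and 39.0%. The motifs were not gathered at the summit, since 35.3% of 269 motifs lay within 50 bp of it where an even spread over the window would give 34.2%. The share was 37.0% in non-promoter and 37.6% in promoter TRF2 regions in ATAC peaks, and 39.8% in regions of 1 replicate outside them. The nearly even spread was thus shared with TRF2 regions in ATAC peaks. In distal ATAC peaks without TRF2 49.2% of AP-1 motifs lay as near to the ATAC summit. A single motif was in 133 windows, and 55 held at least 2. The window in an intron of Eif2ak4, the gene for an eIF2 kinase that senses lack of amino acids, held 9, that with Calcr as nearest coding gene 7 and that near Usp7, a deubiquitinase gene, 5. Those at Eif2ak4 and Calcr were tandem repeats, so their motifs are copies of a unit. The intergenic region with Eya1 as nearest coding gene, at 174159 bp, had folds of 9.10 and 8.77.

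The other words searched were compared with the non-promoter TRF2 regions in ATAC peaks, where AP-1 itself was at 39.0%. The E-box CAGCTG, which MyoD and other myogenic factors bind, was in 73 of 503 windows (14.5%, 11.6 to 17.9), against 37.9% of non-promoter TRF2 regions in ATAC peaks (35.5 to 40.4), 37.2% of distal ATAC peaks without TRF2 and 10.3% of tiles. Without tandem repeats it was in 19% of the 503 regions' remaining windows and in 39.3% of non-promoter windows in ATAC peaks. The RUNX word was in 32.4% of windows and 29.7% of non-promoter windows in ATAC peaks, and the TEAD word in 15.5% and 20.8%. In the same order, the GC box was in 3.38% and 15.8%, the GATA word in 4.77% and 6.99%, and the ETS word in 0.795% and 2.83%. Intervals overlapped for the RUNX, TEAD and GATA words. The CTCF core was in 0 of 503 windows, which allows a share of up to 0.596%. It was in 0.989% of non-promoter windows in ATAC peaks (0.554 to 1.63), 0.125% of regions of 1 replicate and 0 of 385 IgG peaks. In distal ATAC peaks without TRF2 its share was 4.74%. Each word is a description of letters in the window and not a binding site.

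The classes also differed in how often both replicates listed a region. Of all IgG-free TRF2 regions outside ATAC peaks in either replicate, both had a peak in 16.1% of 1200 tandem repeats (14.0 to 18.3), 17.1% of 1037 AP-1 windows (14.8 to 19.5) and 5.91% of 2252 windows with neither (4.97 to 6.96). This share is a part of the selection and was not tested.

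The regions lay nearer to open chromatin than the genome at large. The nearest ATAC peak of any library was a median of 6898 bp away, with a range of 1 to 451094 bp, while the median over tiles was 17901 bp. Within 10 kb of an ATAC peak were 63.0% of regions (58.6 to 67.3), 63.4% of TRF2 regions of 1 replicate (61.9 to 64.9), 46.5% of IgG peaks (41.4 to 51.6) and 39.1% of tiles. At the edge of the rule, the closest regions were 1 bp (near Ifnar2), 5 bp (near Rph3al) and 16 bp (near Baiap2l1) from an ATAC peak, and the regions left out by the smallest overlap shared 2, 9 and 25 bp with one. Within 50 bp of the border there were 4 regions on either side.

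**Figure D4:**
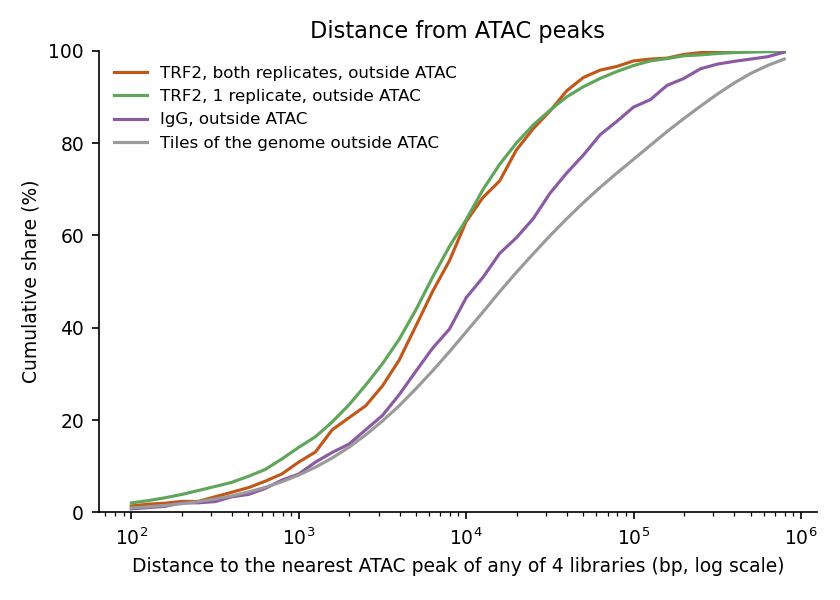
Cumulative share (y axis, %) of regions or tiles within a given distance of the nearest ATAC peak of any of 4 libraries (x axis, bp, log scale). The 503 TRF2 regions and those of 1 replicate run together, with 63.0% and 63.4% within 10 kb, above IgG peaks (46.5%) and tiles (39.1%).

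A MACS peak is a call at a threshold, so the same regions were looked up in the lists of 2 other callers. By GoPeaks, Control replicate 1 had 1 of the 503 regions, Control replicate 2 had 2, TRF2KO replicate 1 had 1 and TRF2KO replicate 2 had 0, which made 2 regions in any library (0.398%, against 0.156% of tiles). The region near Zfp608, 35 bp from a MACS ATAC peak, was listed in 3 libraries, and the region in a UTR of Myo5a, a gene for an unconventional myosin, in Control replicate 2. SEACR, whose regions cover 157.7 to 222.0 Mb against 61 to 75.5 Mb for MACS, had 22 in Control replicate 1, 46 in Control replicate 2, 23 in TRF2KO replicate 1 and 21 in TRF2KO replicate 2. In the same order these were 4.37%, 9.15%, 4.57% and 4.17% of the 503, against 3.95%, 6.60%, 3.84% and 4.08% of tiles outside ATAC peaks. Control replicate 2 also had the largest SEACR list, 222.0 Mb. The mean counts were 34.0 in Control and 22 in TRF2KO, and the groups overlapped. No test is given, since the regions were selected for lacking a MACS peak in these same 4 libraries and 2 against 2 libraries cannot go below p = 0.33 in an exact permutation test. Of the 503 regions 72 (14.3%) had a SEACR region in at least 1 library, against 9.58% of tiles, which are narrower, and 85.5 to 90.5% of the 6549 regions in ATAC peaks had one in each library. Control replicates 1 and 2 shared 10, which is 45.5% of the former and 21.7% of the latter, and pairs of libraries in all shared 21.7 to 52.2% of the regions of either. There were 2 regions, near Rbfox2 and Cyth2, with one in all 4 libraries. Outside the regions of all 3 callers there remained 429, with AP-1 motifs in 37.5%. A loss of accessibility with TRF2 deletion could not be looked for at regions without a peak, and read coverage was not analysed here.

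**Figure D5:**
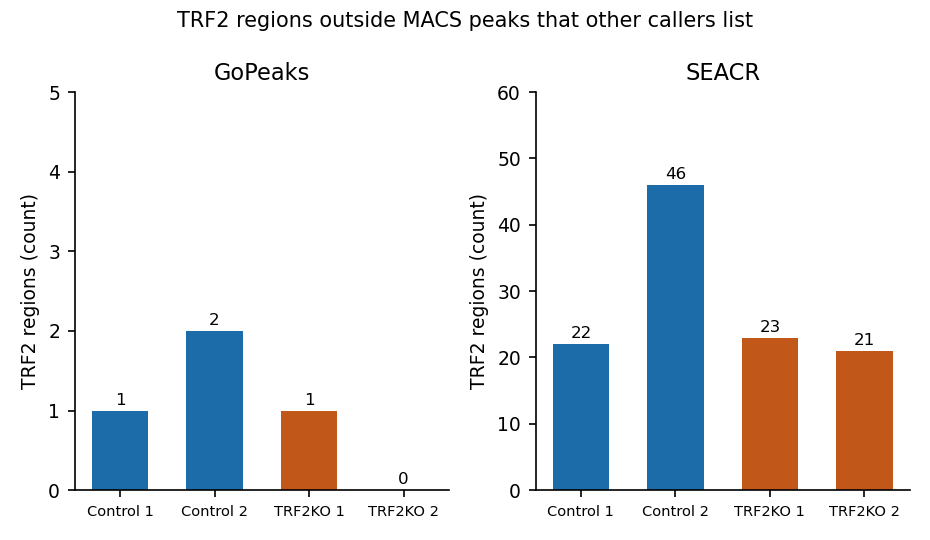
Number of the 503 TRF2 regions (y axis, count) that overlap a GoPeaks region (left) or a SEACR region (right) in each ATAC library (x axis). Bars give 1, 2, 1 and 0 for GoPeaks and 22, 46, 23 and 21 for SEACR, and the highest bar is Control replicate 2 in both panels. That library also had the largest list by each caller, 63.4 Mb for GoPeaks and 222.0 Mb for SEACR.

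Most of the gene lists held too few genes to set the regions apart from coding genes at large. Of the 503, 360 had a protein-coding start within 50 kb. The nearest such gene belonged in 0 cases to 33 genes of MuSC identity and Notch signaling, where 8 of 1102 non-promoter TRF2 regions in ATAC peaks (0.726%) did and 0.159% of 20780 coding genes do. It was 0 as well for 31 myogenic and sarcomere genes (0.149% of coding genes), 13 shelterin and telomerase genes (0.0626%), and the endothelial and mural (0.0577%), fibro-adipogenic (0.0481%) and neural and glial (0.0481%) markers, so that under 1 region would fall to each at the share of coding genes. Olfactory, vomeronasal and taste receptor genes, which are 7.05% of coding genes, also had 0. A single region (0.278%, against 0.106% of coding genes) had a gene of the immune marker list, Itgam, the integrin chain of CD11b, at 11560 bp with folds of 6.84 and 6.89. There were 2 regions (0.556%, against 1.07% of coding genes) with a developmental transcription factor, Pou2f1 at 41108 bp and Foxb2 at 24425 bp. These counts are small and were not tested.

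The cells carried the chromatin of MuSCs. All 8 MuSC marker genes, Pax7 and Myf5 among them, had an ATAC peak at their start in all 4 libraries. Of 9 immune markers, 7 had none in any library and 1 in all, while 4 of 6 endothelial and mural, 3 of 5 fibro-adipogenic and 3 of 4 neural and glial markers had one in all 4. These checks apply to uninjured muscle, and immune or other cells in the injured muscle used for CUT&Tag were not measured. The peak at the start of Terf2, the gene of TRF2, had folds of 54.3 and 48.4 in Control and 21.5 and 18.6 in TRF2KO libraries, and the nearest of the 503 regions was 566176 bp from the gene. A TRF2 region of both replicates lay at the start of 1 of the 8 MuSC markers, Cd34, and that region was in an ATAC peak.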

How the data were processed

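Peak lists were analysed, not reads. The authors trimmed adapters (Cutadapt), aligned to mm10 (Bowtie2; version 2.4.4 for CUT&Tag and 2.5.4 for ATAC-seq per the labels), removed duplicates (Picard) and kept unique, properly paired reads (SAMtools). They called peaks per library with MACS3, SEACR 1.3 and GoPeaks. Settings other than SEACR's stringent mode, and any use of IgG as control in calling, are not given in the sources used here.

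The deposited MACS lists hold a fold enrichment, that is, a ratio to local background, with −log10 p and −log10 q values. The deposited score rescales −log10 q and was not used, nor was the deposited DiffBind score of the consensus lists. SEACR lists hold the authors' summed and maximum signal, of which positions alone were used. Depth is unknown beyond pileups solved from fold and p by the Poisson tail (99.8%, 99.8% and 97.7% of peaks in TRF2 1, TRF2 2 and IgG).

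Merging, annotation (GENCODE M21), motif searches in windows of 150 bp to either side of the replicate 1 summit and tests were run in Python 3.11.15 with SciPy 1.17.1, and were tested on simulated data. Fisher's exact tests were adjusted by Benjamini-Hochberg over 10. Intervals are Clopper-Pearson, 95%, and cover counting error only. The limit given for a share of 0 is instead 3 divided by the number of windows. For the 503 regions it is 0.596%, below the Clopper-Pearson upper bound of 0.731%. Motifs not spelled out above were RUNX (TGTGGT), TEAD (GGAATG) and CTCF core (by name), both strands. Named were the 10 regions with the highest lower fold, the 5 such within 3 kb of a coding start, the 5 such with G4, those with 3 telomeric units, and those near listed genes. Regions, lists and tests were chosen with earlier results of these data known. Tandem-repeat and AP-1 classes were added after the sequences were seen. The sequence of 1 region is not reported here.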

Additional observations from a re-analysis of the deposited data

How the results depend on the processing

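In all, 112 alternatives were computed, 88 of them planned and 24 (those on AP-1 motifs and tandem repeats, and the comparisons without tandem-repeat windows) chosen after seeing the data. Of these, 90 kept direction and side of the threshold or moved within the limits set. The number of regions was 521 to 537 without 1 of the ATAC libraries, 1755 to 3251 with a single TRF2 replicate, 476 where an ATAC peak within 500 bp counted, 429 outside GoPeaks and SEACR regions as well, and 126 with −log10 q of at least 5 in both replicates and 857 outside the consensus lists in place of the MACS lists. The AP-1 share was 25.1 to 25.6% with a single TRF2 replicate and 43.7% over whole regions. The tandem-repeat share was 24.9 to 29.7% with a single replicate, 44.3% and 26.0% where 10% and 50% of runs had to repeat, and 46.0% with IgG regions kept. The G4 odds ratio against regions in ATAC peaks was 0.864 within GC strata. Against IgG peaks, the promoter odds ratio was 1.56 at −log10 q of at least 5, 1.57 within 1 kb and 1.34 without tandem repeats, and the CpG island-like one was 0.229 (p = 0.293) and 0.2 (exact tests), all no longer past the threshold. The direction turned for telomeric repeats against regions in ATAC peaks with a single replicate (odds ratios 1.72 to 2.39), and for G4 against IgG peaks without TRF2 replicate 2 (0.938, and 1.01 without replicate 1) or with loops of up to 12 bases (0.932). The cause was not tested, other than fewer regions at the stricter threshold.

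With the replicate number as a block, pairing Control and TRF2KO libraries that share only a number, the differences were 1.00 region for GoPeaks and 12.0 for SEACR, and p cannot go below 0.5. Few fragments per peak, 1 IgG library and 2 replicates limit every count here.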
